A study of Mus musculus with 4 samples.

Results

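The 10 genes of lipid droplet proteins described here were read out in liver RNA of male C57BL/6 mice. They are Cidea, Cideb and Cidec, Plin2, Plin3, Plin4 and Plin5, Fitm1 and Fitm2, and Hilpda. They were chosen by name, with the values of these libraries in the comparison of the 2 diets already known, so their values in that comparison are given as a description and carry no p-value. All 10 of 10 had a row of their own among the 22849 gene symbols of the deposited table, and all 10 were among the 10786 symbols whose 4 values averaged 1 FPKM or more, the floor for testing. FPKM is a fragment count scaled by transcript length and by library size, so levels of different genes can be set side by side. Both groups ate a diet with 60% fat for 12 weeks, a model of diet-induced obesity. The vehicle group (2 libraries) ate that diet alone, and in the UAB126 group (2 libraries) each kg of diet also held 1.2 g of UAB126, a compound given only by this code. A lean diet was not analysed here, so the levels are not set against a lean liver. The titles number the libraries 1 and 2 and do not say that they came from separate animals. The spread between the libraries of a group may therefore be technical. Standard errors and p-values draw on that spread and, through limma, on the spread of the other genes tested.

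A lipid droplet is a store of triglyceride and sterol esters under a single layer of phospholipid, and in hepatocytes the number and size of droplets set how fatty a liver is. FIT proteins sit in the endoplasmic reticulum, where droplets are born. CIDE proteins gather at contacts between droplets and pass lipid from the smaller to the larger one. Perilipins coat the droplet and control the access of lipases, and Hilpda inhibits adipose triglyceride lipase, the enzyme that starts the breakdown of triglyceride.

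The libraries differed in depth and in the levels of cell type markers. The depth relative to UAB126 replicate 1, read from the steps between low values, was 0.689 and 0.404 in the vehicle libraries and 0.701 in the other UAB126 library; the absolute depth is unknown. Hepatocyte markers were high in all 4 libraries, though lower on UAB126 for most of the list (Ttr, which codes for transthyretin, at 34330 and 44090 FPKM on vehicle and 19630 and 25330 FPKM on UAB126). All 4 libraries also held transcripts of heart muscle, in very unequal amounts. The summed level of 10 heart muscle markers (a list added after their values were seen) came to 446.5 FPKM (replicate 1) and 2445 FPKM (replicate 2) for vehicle, and to 18.2 and 128.4 FPKM in the same order for UAB126. Each of the 10 was lower in both UAB126 libraries than in both vehicle libraries. Myl2, a ventricular myosin light chain, was at 153.3 and 842 FPKM on vehicle, against 5.50 and 46.3 FPKM on UAB126. Several lipid droplet genes are also active in muscle, and these marker values are set beside the results below where they touch them.

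Sequences upstream of the gene start are shown for Fitm1 and Cideb, the more abundant of the members that were lower in both UAB126 libraries, and for Fitm2, the paralog of Fitm1 whose groups overlapped. They come from RefSeq (build GRCm38.p6, the assembly also called mm10), where 9 of the 10 members had a window; they are written 5' to 3' on the strand of the gene and stop short of the first annotated exon of the gene. The stretch of Fitm1 is chr14:55575424-55575616 (plus strand), that of Cideb chr14:55758459-55758674 (minus strand) and that of Fitm2 chr2:163472630-163472879 (minus strand). Each window, from 250 bases before to 50 bases after a start, was searched on both strands for 4 motifs. AGGTCA, the core element of many nuclear receptors, was in 16.3% of all 32851 windows and in windows of Plin2 and Plin5. The same element repeated exactly after 1 base, a form that PPAR and RXR bind together, was in 0.0396% of all windows and in no member's window. Looser repeats and sites outside the windows were not searched. With so low a share its absence from the members' windows is uninformative. ACGTG, the core of the hypoxia response element, was in 19.6% of all windows and in windows of Plin2 and Hilpda. In Plin2 the matches on both strands overlap as a single CACGTG, and what binds there was not tested. TGACGTCA, the cyclic AMP response element, was in 1.79% of all windows and in no member's window. None of the 4 motifs was in the windows of Fitm1, Cideb or Fitm2, so their stretches carry no capitals.
Fitm1: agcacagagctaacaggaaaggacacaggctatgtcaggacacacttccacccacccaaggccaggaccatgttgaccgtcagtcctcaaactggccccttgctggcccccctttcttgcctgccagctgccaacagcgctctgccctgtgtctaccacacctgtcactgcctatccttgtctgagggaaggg
Cideb: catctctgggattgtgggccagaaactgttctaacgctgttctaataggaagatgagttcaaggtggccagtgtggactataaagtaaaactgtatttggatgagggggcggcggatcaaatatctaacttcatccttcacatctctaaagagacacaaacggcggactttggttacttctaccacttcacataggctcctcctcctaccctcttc
Fitm2: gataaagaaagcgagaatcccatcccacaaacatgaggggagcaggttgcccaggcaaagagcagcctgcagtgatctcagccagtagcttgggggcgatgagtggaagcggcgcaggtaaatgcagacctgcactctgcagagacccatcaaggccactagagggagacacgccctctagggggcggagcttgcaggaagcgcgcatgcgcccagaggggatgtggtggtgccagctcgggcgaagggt

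The FIT pair split. Fitm1 stood at 145 FPKM (replicate 1) and 138 FPKM (replicate 2) on the vehicle diet, against 14.9 and 33.4 FPKM on the UAB126 diet; values of a pair are given in this order throughout. Both UAB126 libraries lay far below both vehicle libraries, which were nearly equal to each other, and UAB126 replicate 2 was 2.24 times UAB126 replicate 1. The ratio of the group means was 5.86, and the difference in log2(FPKM + 1), UAB126 minus vehicle, was -2.61 ± 0.39. For every gene ± is the moderated standard error from limma (n = 2 per group). It pools the gene's own spread with that of genes of similar level. It can therefore lie below the SD between a gene's replicates (0.56 for Fitm1) or above it (0.15 for Cidea, with a standard error of 0.22). Fitm2 was at 17.8 and 14.5 FPKM on vehicle, against 15.3 and 18.9 FPKM on UAB126. Its groups overlapped, with a difference of 0.08 ± 0.21. Antisense genes overlap both, Gm15932 at Fitm1 and 2310001K24Rik at Fitm2, and no source used here says whether the counting used strand, so their reads cannot be told apart. The level of Fitm1 per length was 8.12 and 9.51 times that of Fitm2 in the vehicle libraries and 0.971 and 1.77 times with UAB126. In a whole liver fewer cells that express a gene and less RNA per cell cannot be told apart, here and for every gene below.

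Fitm1 is best known from skeletal muscle and heart, while Fitm2 is active in most tissues. The heart muscle markers moved with Fitm1 between the groups, and differently between the vehicle replicates. Over the 10 markers the ratio of vehicle replicate 2 to vehicle replicate 1 ran from 4.78 to 8.55 with a median of 5.47, where that of Fitm1 was 0.955. The ratio of UAB126 replicate 2 to UAB126 replicate 1 ran from 0 (Nppa) to 8.42 with a median of 6.23 over the markers. The low end came from Nppa, Myl7 (1.27) and Ryr2 (2.955), all below 1 FPKM in both UAB126 libraries. The other markers ran from 5.39 (Tnnc1) to 8.42 (Myl2), above the 2.24 of Fitm1. Without vehicle replicate 2, the library with the highest marker levels, the difference of Fitm1 was -2.64. Vehicle replicate 1 still had a higher marker sum (446.5 FPKM) than either UAB126 library (18.2 and 128.4 FPKM). The ratio of vehicle replicate 1 to UAB126 replicate 2 was 4.33 for Fitm1. Over the markers above 0 in both libraries it ran from 2.70 (Tnnc1) to 10.2 (Myl7). Of 6 skeletal muscle markers, Ckm, Acta1 and Mb were lower in both UAB126 libraries and the other 3, Myh4, Tnnt3 and Pvalb, were below 1 FPKM in every library. The summed level of the skeletal list was 136 and 776 FPKM on vehicle, against 3.86 and 39.5 FPKM on UAB126, nearly all of it Mb, the myoglobin gene, which heart expresses too. The part of muscle RNA in the Fitm1 difference was not tested.

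**Figure D1:**
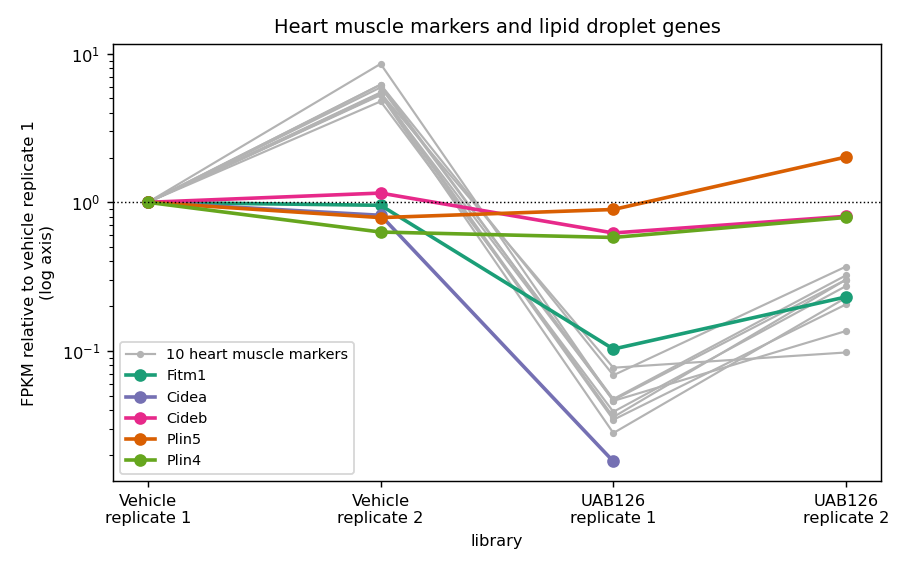
FPKM of each gene divided by its own value in vehicle replicate 1 (log axis) in the 4 libraries; grey lines join the values of the 10 heart muscle markers and coloured lines those of 5 lipid droplet genes. The markers were 4.78 to 8.55 times higher in vehicle replicate 2 than in vehicle replicate 1, where Fitm1 was at a ratio of 0.955; values listed at 0 (Cidea and the marker Nppa in UAB126 replicate 2) are not drawn.

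Of the 3 CIDE genes, 2 were lower with UAB126. Cidea, which drives the growth of droplets in brown fat and is switched on in fatty liver, was at 7.17 and 5.87 FPKM in vehicle. With UAB126 it was at 0.129 FPKM in replicate 1 and listed at 0 in replicate 2. The groups were far apart, with a difference of -2.82 ± 0.22 on the log2(FPKM + 1) scale, which understates the change of so low a gene (-5.44 with a pseudocount of 0.1). Among 312 tested genes with a transcript within 10% of its 1115 bases, the lowest value above 0 was 0.0487 FPKM in UAB126 replicate 1 and 0.139 FPKM in UAB126 replicate 2, so the 0 is known only to lie below what such genes resolved there. Cidea passed the floor for testing only through its vehicle values. It lies on chromosome 18 at 67343604 to 67367785 of GRCm38, and no sequence is shown for it. Ucp1, the defining gene of brown adipocytes, was listed at 0 in all 4 libraries.

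Cideb, the CIDE gene of hepatocytes, which also helps to load lipid onto VLDL particles, was the most abundant of the 10 genes. It was at 416 and 480.0 FPKM on vehicle, against 259 and 335 FPKM on UAB126. Both UAB126 libraries lay below both vehicle libraries, by a ratio of group means of 1.51, and the difference was -0.60 ± 0.26. Most hepatocyte markers moved with it: 5 of 8 were lower in both UAB126 libraries, 2 were higher (Tat and Hnf4a) and Cps1 overlapped. Their median difference was -0.61. The summed level of the list was 62870 and 88380 FPKM against 34490 and 50500 FPKM, set mainly by Ttr and Apoa1. The part of hepatocyte RNA in the Cideb difference was not tested. Genes of similar length were also lower: the 975 genes with the shortest transcripts (up to 1321 bases, where Cideb has 1212) had a median difference of -0.42. The same genes also differed between replicates of a group, by a median of 0.51 on vehicle and 0.44 on UAB126 (replicate 2 minus 1). With the length trend of each library removed, the difference of Cideb was -0.25. With quantile normalization it was -0.21. Cideb overlaps Nop9 on the opposite strand, whose reads could be counted with it. Fitm1 (971 bases) and Cidea stood at -2.16 and -2.43 with the length trend removed.

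Cidec, known as Fsp27 in the mouse, makes the single large droplet of white fat cells and is raised in fatty liver. The row named Cidec alone was at 6.51 and 6.09 FPKM on vehicle, against 5.18 and 10.2 FPKM on UAB126. The UAB126 libraries lay on either side of the vehicle libraries, with a difference of 0.19 ± 0.31. A second row, named for Camk1 and Cidec together, was at 18.3 and 9.36 FPKM on vehicle, against 4.77 and 11.2 FPKM on UAB126, again with overlapping groups. Its FPKM cannot be divided between the genes, so it was not counted as a member; added to the first row, it turned the difference to -0.40.

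Which of these rows holds the Cidec transcript is uncertain. The table has no strand column, but on the chromosomes of the 10 genes its rows run through genes of the plus strand and then through those of the minus strand; on chromosome 6 a single split placed 98.2% of the rows with an annotated strand on the side of their strand. Cidec is annotated on the minus strand (chromosome 6, 113424634 to 113435760), yet its row stands among the plus-strand rows: 0 of its 15 nearest rows with a strand were on the minus strand. The joint row stands among minus-strand rows (16 of 16). The other 9 members stood on the side of their own strand. No direction is therefore given for Cidec.

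By a rule on distance over the 4 libraries, the genes with a profile most like that of the Cidec row were Adipoq, Cgref1 and Ppp2r2d (Euclidean distances of 0.0362, 0.0655 and 0.139 between log2 values centred on each gene). Adipoq, the adiponectin gene of fat cells, was at 2.80 and 2.59 FPKM on vehicle, against 2.09 and 4.47 FPKM on UAB126. With 4 values per gene and 10786 genes tested, close profiles can arise without a shared source. No background of distances was computed, so nothing is read from being close. The closest profiles to Cidea were those of Cyp2d40, Oat and Tpm2, at distances of 0.372, 0.502 and 0.555. That likeness holds only on the log2(FPKM + 1) scale, which understates the change of Cidea. Cyp2d40 was at 160 and 174 FPKM on vehicle, against 23.6 and 26.4 FPKM on UAB126. Cidea was at 7.17 and 5.87 FPKM on vehicle, against 0.129 and 0 FPKM on UAB126. Of 8 adipocyte markers in the table, Cfd, Lipe and Slc2a4 were lower in both UAB126 libraries, 3 others overlapped, and Plin1 and Lep were below 1 FPKM throughout. The level of Slc2a4 in vehicle replicate 2 was 4.745 times that in vehicle replicate 1, beside 4.78 to 8.55 times for the heart muscle markers. The summed level of that list was 239 and 82.6 FPKM on vehicle, against 15.6 and 42.9 FPKM on UAB126, set mainly by Cfd, the adipsin gene (213 and 51.2 against 2.54 and 19.6 FPKM). The part of fat cells in the CIDE values was not tested.

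**Figure D2:**
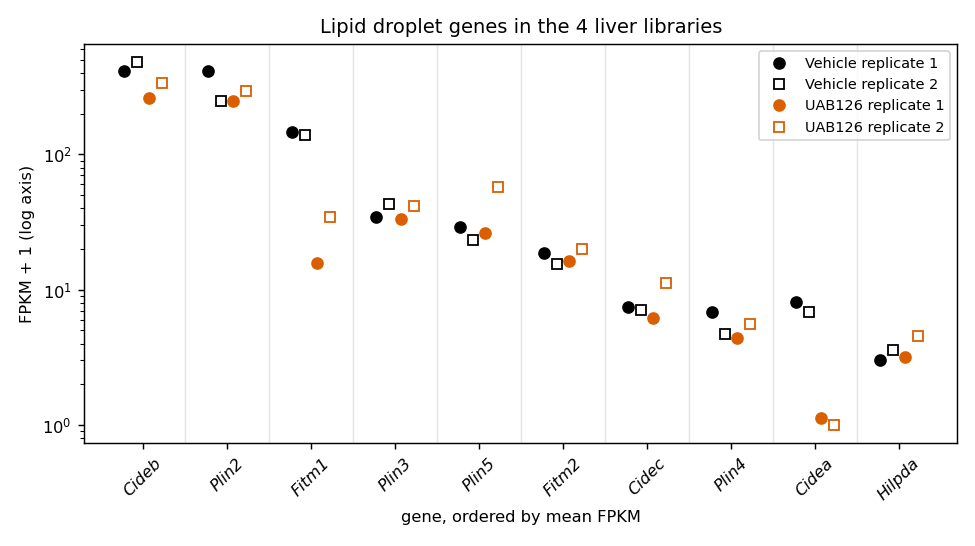
FPKM + 1 (log axis) of the 10 lipid droplet genes, ordered by mean level; each library is 1 point. Cidea, Cideb and Fitm1 have both UAB126 points below both vehicle points, as for Fitm1 with 14.9 and 33.4 against 145 and 138 FPKM; the other 7 overlap.

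No perilipin had groups that did not overlap. Plin2, the main droplet coat of hepatocytes, whose protein rises and falls with stored lipid, was at 409 and 247 FPKM on vehicle, against 245 and 295 FPKM on UAB126. Vehicle replicate 1 stood above the other 3 libraries, and the difference of -0.24 ± 0.32 was smaller than the step between the vehicle libraries (-0.73, replicate 2 minus 1). It was -0.60 without vehicle replicate 2 and 0.12 without vehicle replicate 1. Plin3, a widely expressed coat protein of small new droplets, was at 33.4 and 42.1 FPKM on vehicle, against 32.1 and 40.9 FPKM on UAB126, so the replicates of each group lay farther apart than the groups (-0.05 ± 0.23). Plin2 and Plin3 turned to 0.09 and 0.10 with quantile normalization.

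Plin4, the longest of the family and best known from white fat, was at 5.82 and 3.68 FPKM on vehicle, against 3.38 and 4.61 FPKM on UAB126. Its difference was -0.19 ± 0.26, and its groups overlapped. Its annotated end overlaps that of Hdgfl2, on the opposite strand. Plin5, which ties droplets to mitochondria in tissues that burn fat, was at 28.1 and 22.2 FPKM on vehicle, against 25.1 and 56.7 FPKM on UAB126. UAB126 replicate 2 alone was high, and the difference of 0.58 ± 0.41 came to 0.01 without it. Heart expresses Plin4 and Plin5 too. Vehicle replicate 2, which had the highest heart marker levels, had the lower value of the vehicle pair for both. UAB126 replicate 2 had the higher heart marker sum of its pair (128.4 against 18.2 FPKM). It also had the higher value of that pair for both genes. The part of heart RNA in the values of Plin4 and Plin5 was not tested.

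Summed over Plin2 to Plin5, perilipin transcripts came to 477 and 315 FPKM on vehicle, against 306 and 397.0 FPKM on UAB126. Plin2 made up 85.9% and 78.4% of that sum in vehicle and 80.2% and 74.3% with UAB126. Plin5 made up 5.89% and 7.04% in vehicle and 8.22% and 14.3% with UAB126. Plin2 was thus the most abundant perilipin transcript in each library, and Plin5 had its largest share in UAB126 replicate 2. Plin3, Plin4 and Plin5 lie close together on chromosome 17 (56100591 to 56292873), and the 3 did not share a pattern.

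Hilpda, a target of hypoxia and of fatty acids, was the least abundant member on average, at 2.00 and 2.57 FPKM on vehicle, against 2.17 and 3.54 FPKM on UAB126. Its groups overlapped, with a difference of 0.21 ± 0.26, or 0.65 with the length trend removed (982 bases). Its sequence is shown around the match to ACGTG (capitals), which starts 43 bases before the second annotated start and inside the annotated gene, at chr6:29272573-29272597 of GRCm38.p6 on the plus strand.
Hilpda: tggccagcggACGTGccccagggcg

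By mean level per length over the 4 libraries the order was Cideb (372 FPKM), Plin2 (299), Fitm1 (82.8), Plin3 (37.1), Plin5 (33.0), Fitm2 (16.6), Cidec (6.99), Plin4 (4.37), Cidea (3.29) and Hilpda (2.57). Neighbours in this order whose 4 values overlapped were Cideb and Plin2, Fitm1 and Plin3, Plin3 and Plin5, Cidec and Plin4, Plin4 and Cidea, and Cidea and Hilpda. The place of Cidec rests on its single row: with the joint row added its mean was 17.9 FPKM, between Plin5 and Fitm2, and its values overlapped both of those and no longer Plin4. In vehicle alone, Fitm1 stood clear of Plin3, by 138 against 42.1 FPKM at the nearest values. With UAB126 the range of Fitm1 overlapped that of Plin3, and Cidea was the lowest of the 10.

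Counted over the family, 3 of the 10 genes (Cidea, Cideb and Fitm1) were lower in both UAB126 libraries than in both vehicle libraries, 0 were higher and 7 overlapped. Across all 10786 genes tested, 26.9% were lower in this way and 22.7% higher. With a library left out, groups that do not overlap are more common among all genes too. Of the 10 genes, 4 were then lower without vehicle replicate 1 (44.3% of all genes), 5 without vehicle replicate 2 (37.2%), 3 without UAB126 replicate 1 (34.5%) and 7 without UAB126 replicate 2 (42.8%). Those higher numbered 2 (37.7%), 1 (34.2%), 4 (34.3%) and 0 (33.8%) in the same order. In the fit across all genes 1 of the 10, Cidea, was past the threshold (limma adjusted p under 0.05), against 0.139% of all genes tested, 0.0927% lower and 0.0464% higher with UAB126; nothing is read from these shares, since the genes were chosen with this contrast known. Cidea was not past it with a pseudocount of 0.1, with the length trend removed, with no filter on low values or without either UAB126 library, and Fitm1 was past it without vehicle replicate 1. The genes past the threshold numbered 5 higher and 10 lower, which became 12 and 12 with quantile normalization and 12 and 10 with the length trend removed. The median difference was -0.12 over the 10 genes and -0.025 over all genes.

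UAB126 replicate 2 was higher than UAB126 replicate 1 in 9 of the 10 genes, all but Cidea, where 56.2% of all genes tested were higher. Vehicle replicate 2 was higher than vehicle replicate 1 in 3 of the 10 (Cideb, Plin3 and Hilpda), against 53.4% of all genes. These shares of all genes are not matched for transcript length. Cidea, Cideb, Fitm1 and Hilpda are among the 975 genes with the shortest transcripts. The median step of those 975 genes, replicate 2 minus 1, was 0.44 on UAB126 and 0.51 on vehicle. For the 975 genes with the longest transcripts it was -0.15 and -0.10. The steps within the UAB126 group were largest in Plin5 (1.14), Fitm1 (1.11) and Cidec (0.85), on the log2(FPKM + 1) scale. An exact permutation of 2 against 2 libraries cannot give a two-sided p under 0.333.

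**Figure D3:**
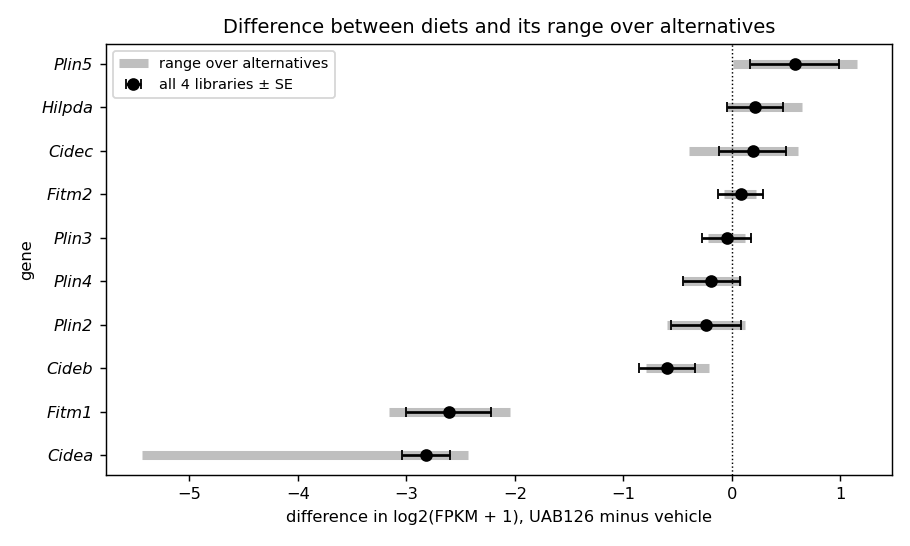
Difference in log2(FPKM + 1), UAB126 minus vehicle, of each lipid droplet gene from all 4 libraries (points, bars are 1 standard error) and its range over the alternatives (grey). The ranges of Cidea (-5.44 to -2.43) and Fitm1 (-3.16 to -2.05) lie farthest below 0; the range of Cideb (-0.79 to -0.21) also stays below 0 and that of Plin5 (0.01 to 1.15) above it, while the other 6 cross 0.

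Other genes of the pathway were described from 7 lists, which were also chosen with earlier results of these data known. The limma test was run over all genes, and most named genes were picked for their small p, so their p-values are descriptive. The counts per list stand beside the shares of all genes tested: 0.139% past the threshold, 26.9% lower in both UAB126 libraries and 22.7% higher. Of 14 tested genes of other droplet surface proteins, 0 passed the threshold, 4 were lower in both UAB126 libraries, 3 were higher and 7 overlapped. The median difference was -0.13, but 0.13 with quantile normalization, 0.01 with the length trend removed, -0.08 without UAB126 replicate 1 and 0.00 without UAB126 replicate 2. Dhrs3, a retinal reductase found on droplets, was at 200.1 and 207 FPKM on vehicle, against 114 and 134 FPKM on UAB126 (-0.72 ± 0.22, limma adjusted p = 0.305). Mettl7a1 differed by -0.43 ± 0.22, and Spg20, which codes for spartin, and 1110057K04Rik, which codes for the droplet hydrolase LDAH, by 0.75 ± 0.19 and 0.41 ± 0.23. The untested gene was Plin1, the perilipin of fat cells, at 0.175 to 0.805 FPKM.

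Among genes of droplet assembly and triglyceride synthesis, 12 of 15 were tested, 0 passed, 6 were higher in each UAB126 library than in either vehicle library, and 3 lower. The median difference was 0.18, but 0.28 or 0.01 with vehicle replicate 1 or 2 left out, 0.32 without UAB126 replicate 1 and 0.34 with no filter or with a floor of 5 FPKM. Agpat9, which codes for the acyltransferase GPAT3, was at 4.96 and 3.68 FPKM on vehicle, against 10.7 and 16.1 FPKM on UAB126 (1.42 ± 0.26, limma adjusted p = 0.184). Lpin1, a phosphatidate phosphatase, was at 11.5 and 14.5 against 27.4 and 74.3 FPKM, and Agpat6, which codes for GPAT4, at 56.4 and 59.1 against 35.9 and 36.7 FPKM. Mogat1, an acyltransferase induced with Cidea in fatty liver, was at 3.10 and 1.66 FPKM on vehicle, against 0.620 and 0.656 FPKM on UAB126 (-1.01 ± 0.29, limma adjusted p = 0.277). Seipin itself, coded by Bscl2, was at 60.3 and 60.2 against 43.3 and 53.1 FPKM; it is named outside the rule, as the best known assembly factor.

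Of 7 tested genes of lipolysis, 0 passed, 5 were lower in both UAB126 libraries and 0 higher (median difference -0.27, or -0.11 with quantile normalization). G0s2, which like Hilpda inhibits adipose triglyceride lipase, was at 428 and 287 FPKM on vehicle, against 120 and 181 FPKM on UAB126 (-1.25 ± 0.33, limma adjusted p = 0.270). Lipe, hormone-sensitive lipase, was at 17.5 and 14.3 against 7.62 and 7.38 FPKM (-0.98 ± 0.19, limma adjusted p = 0.199). Lipa, the lysosomal acid lipase, and Abhd5, the activator of adipose triglyceride lipase, differed by -0.47 ± 0.23 and -0.22 ± 0.17.

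Of 14 transcription factors of lipid storage, 0 passed, with 4 lower and 4 higher in both UAB126 libraries. The median difference was -0.04, but 0.17 with quantile normalization, and it was 0.10 or -0.18 with vehicle replicate 1 or 2 left out and 0.00 or -0.11 with UAB126 replicate 1 or 2 left out. Srebf1, the lipogenic factor, was at 108.5 and 77.6 FPKM on vehicle, against 51.8 and 29.1 FPKM on UAB126 (-1.22 ± 0.34, limma adjusted p = 0.278). Cebpa, Ppard and Ppargc1a differed by -0.49 ± 0.21, 0.49 ± 0.20 and 0.46 ± 0.21. Of 5 tested targets of PPAR-gamma in fatty liver, 0 passed, 3 were lower and 2 overlapped. The median difference was -1.01, but -0.57 without vehicle replicate 2, -0.52 with no filter, -0.67 with the length trend removed and -1.60 with a pseudocount of 0.1. The lower ones besides Mogat1 were Cfd (-3.63 ± 1.01) and Lpl, lipoprotein lipase (18.2 and 72.2 against 9.74 and 14.6 FPKM). The level of Lpl in vehicle replicate 2 was 3.98 times that in vehicle replicate 1, beside 4.78 to 8.55 times for the heart muscle markers. The difference of Lpl was -1.53 ± 0.64 (limma adjusted p = 0.386). It came to -2.50 without vehicle replicate 1 (limma adjusted p = 0.00968) and to -0.57 without vehicle replicate 2 (limma adjusted p = 0.649). Vldlr, the VLDL receptor, overlapped (0.51 ± 0.42).

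Of 13 tested PPAR-alpha targets, 1 passed, 7 were higher in each UAB126 library than in either vehicle library, and 0 lower. The median difference was 0.42, but 0.90 without vehicle replicate 2, 0.84 without UAB126 replicate 1 and 0.70 with quantile normalization. Fgf21, a liver hormone, rose by 4.15 ± 0.29 (limma adjusted p = 0.0345), a call lost with no filter on low values and without either UAB126 library. Cyp4a14, a fatty acid hydroxylase, was at 275 and 46.4 FPKM on vehicle, against 1302 and 2655 FPKM on UAB126 (limma adjusted p = 0.227). Ehhadh, a peroxisomal oxidation enzyme, and Acot2, a thioesterase, differed by 1.70 ± 0.34 and 1.75 ± 0.40. Of 13 tested hypoxia genes, among which Hilpda is usually counted, 0 passed, 2 were lower and 4 higher (median difference 0.05, from -0.01 without vehicle replicate 2 to 0.13 without vehicle replicate 1). The leading ones were Ndrg1 (1.13 ± 0.26), Ddit4 (2.16 ± 0.68), Bnip3 (-0.90 ± 0.22) and Pdk1 (-0.68 ± 0.19). Without vehicle replicate 1, Agpat9, Ehhadh and Cyp4a14 passed the threshold as higher.

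**Figure D4:**
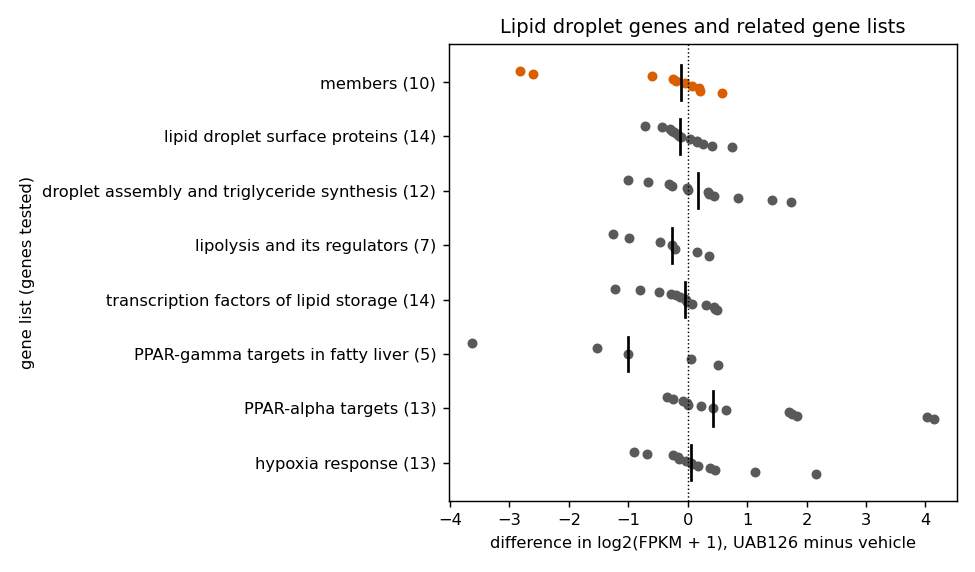
Difference in log2(FPKM + 1), UAB126 minus vehicle, of the 10 lipid droplet genes (orange, described without a test) and of the tested genes of 7 related lists (grey), each point a gene and each bar the list's median. Fgf21, at 4.15 among the PPAR-alpha targets, is the only grey point past the threshold.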

How the data were processed

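Polyadenylated liver RNA was sequenced as paired ends, per the labels' protocols. Cufflinks 2.2.1 with Cuffdiff, the aligner STAR 2.5.1b, Trim Galore 0.4.1 and build mm10 are named in the submitters' processing notes; no source used here gives their settings or annotation. The authors deposited 1 table of FPKM values with a column per library and 27216 rows. Rows without a symbol (3634) were left out, same-symbol rows were summed, and rows naming several genes kept their joint name. Relative depth was read from the commonest ratio between libraries among values under 0.3 FPKM.

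Symbols averaging 1 FPKM or more (10786) were fitted as log2(FPKM + 1) with limma 3.58.1 in R 4.3.3 (intensity trend, group as the only term, all 4 libraries, two-sided, Benjamini-Hochberg adjusted p under 0.05 over all genes). The procedure was tested on simulated data. Positions and transcript lengths (longest transcript) came from GENCODE M21 (GRCm38); 98.7% of 21387 rows with a symbol there overlapped its position. The members, the 7 pathway lists and the 8 lists of cell type markers were chosen with earlier results of these data known; a list of heart muscle markers was added after its values were seen. Named were all members, up to 4 genes per pathway list by unadjusted p, the 2 highest genes per marker list, and the 3 profiles closest to Cidea and to Cidec. Alternatives varied the pseudocount, the filter, the scaling, the length trend, the prior spread, the replicate block, the summing of rows, doubtful zeros and each library. Other numbers were computed with Python 3.11.15 and pandas 2.3.3.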

Additional observations from a re-analysis of the deposited data

How the results depend on the processing

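The number of genes past the threshold in limma (15) became 27 with a pseudocount of 0.1, 24 with quantile normalization, 23 with equal library medians, 148 with a replicate block and 0 with no filter on low values (1764 at an unadjusted p under 0.05). Leaving out 1 library gave 0 to 442: 442 and 56 without the first and the second vehicle library, and 14 and 0 without the first and the second UAB126 library (for the last, 737 at an unadjusted p under 0.05); the lone library of a group is then assumed to vary like the others. The shared numbers do not pair the libraries by any label (correlation of same-numbered deviations 0.178 over 2 pairs); under the block Fitm1 and Ddit4 also passed. The lipid droplet genes lower in both UAB126 libraries (3) numbered 3 to 7 with 1 library left out (34.5% to 44.3% of all genes), and those higher (0) numbered 0 to 4 (33.8% to 37.7% of all genes), and 2 with the length trend removed (25.5% of all genes). Vldlr ranged from -0.05 to 1.06 with 1 library left out, and reversed without vehicle replicate 1. Fgf21 had a limma adjusted p of 0.173 with no filter, 0.0927 without UAB126 replicate 1 and 0.225 without UAB126 replicate 2 (0.00267 to 0.225 over its alternatives). Of the alternative values of the 10 genes, 7 moved by more than 1 SD between replicates. They were 3 of Cidea, 2 of Cideb, 1 of Hilpda and 1 of Cidec. That of Cidec came with the joint row added, an alternative chosen after seeing the data. The other 141 do not measure stability, since most of them could not pass that limit. The filters, prior spread, replicate block, row choice and doubtful zeros leave the difference of these genes unchanged. Leaving out 1 library moves it by at most 1 SD. A floor of 5 FPKM leaves out Cidea, Plin4 and Hilpda. The cause of these changes was not tested, and with 2 libraries per group and unknown absolute depth small differences were not detectable.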

Other observations

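The 9 Kupffer cell and macrophage markers in the table summed to 78.8 and 224 FPKM on vehicle, against 183 and 222 FPKM on UAB126, so that vehicle replicate 1 alone was low; C1qa and Cd5l were the highest (25.6 and 16.5 FPKM in vehicle replicate 1, 71.8 and 44.2 FPKM in vehicle replicate 2). The 5 endothelial markers were also lowest in vehicle replicate 1, at 66.5 and 111 FPKM on vehicle, against 95.8 and 116 FPKM on UAB126, led by Clec4g and Oit3. The 6 stellate cell markers, led by Dcn and Rgs5, summed to 140 and 185 FPKM on vehicle, against 163 and 158 FPKM on UAB126, and the 5 cholangiocyte markers, led by Spp1 and Krt19, to 70.9 and 56.3 against 54.5 and 54.7 FPKM. The leading hepatocyte markers were Ttr and Apoa1, the latter at 22350 and 35880 FPKM on vehicle, against 9453 and 17720 FPKM on UAB126. Of 5 brown adipocyte markers, only Cox7a1 and Elovl3 reached 1 FPKM; Cox7a1, which heart also expresses, was at 22.2 and 85.2 against 5.53 and 17.2 FPKM, and Elovl3, which liver expresses, at 114 and 84.9 against 123 and 145 FPKM.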
